A study of Mus musculus with 10 samples.

Results

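Homeostatic chemokines are secreted without infection and set the architecture of a lymph node. Ccl19 and Ccl21, made by stromal cells of the T cell zone, and Ccl21 of high endothelial venules, draw T cells and mature dendritic cells through their receptor Ccr7. Cxcl13 from follicular stroma holds B cells and follicular helper T cells in the follicle through Cxcr5, and Cxcl12 acts on Cxcr4. The atypical receptors Ackr3 and Ackr4 take up chemokines without signalling through G proteins, Ackr3 for Cxcl12 and Ackr4 for Ccl19 and Ccl21. The 9 genes were taken by name from the 54987 rows of an expression table, as 4 ligands, 3 receptors and 2 atypical receptors. They filled 11 rows, because Ccl19 and Ccl21a are each listed on chromosome 4 and again on an unplaced scaffold.

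By the labels, RNA was sequenced from popliteal nodes, which receive lymph from the hind paw, of male BALB/c mice aged 6 to 8 weeks. All were sampled on day 15. Acu mice (n = 3, libraries 4, 6 and 28) had 0.1 ml of complete Freund's adjuvant in the right hind paw and acupuncture at ST36, a point below the knee. AIA mice (n = 4, libraries 5, 10, 31 and 38) had the same adjuvant alone, which induces arthritis, and Control mice (n = 3, libraries 15, 16 and 17) had saline. Nothing in the labels ties each library to a separate mouse, and the p-values below therefore describe spread among libraries, which may be technical.

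Values are FPKM, fragments per kilobase of gene scaled to library size, which can be compared between genes. The reads behind them, recovered from the FPKM, ran from 13269763 in AIA 10 to 18926894 in Control 15. Of 10 T cell genes, 0 to 2 were above 1 FPKM in Control 15 and in the libraries labelled Acu 4 and Control 17, against 9 in each of the other 7 libraries. Of 8 B cell genes, 0 to 2 were above 1 FPKM in those 3 libraries, and all 8 in the other 7. All 8 decidua genes, which mark the pregnant uterus, were above 1 FPKM in the libraries labelled Acu 4 and Control 17, and 2 or 3 elsewhere. Of 8 trophoblast genes, which mark the placenta, 6 were above 1 FPKM in each of those libraries and 0 in the 8 others. Such genes conflict with the label of a node from a male mouse, and the reason was not tested. Adipocyte genes averaged 9.54 and 7.53 as log2(FPKM + 1) in Control 15 and Control 16, with a highest value of 3.67 elsewhere. AIA 10 had 15116 genes above 0, against 21224 to 24411 in the others. Differences between AIA and Control are therefore given for each tested member row with all 10 libraries, without the libraries labelled Acu 4 and Control 17, and also without Control 15, when Control 16 stands alone and is assumed to vary like the other libraries. In bulk tissue fewer cells of a type and less RNA per cell cannot be told apart.

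The sequences of the Ccl19 and Ccl21 genes bear on how their reads could be assigned. Only copies on chromosome 4 were compared, and the sequences of the scaffold copies were not examined. Ccl21a lies at chr4:42772860-42773993 on the minus strand of GRCm38, the build also called mm10, and Gm10591 at chr4:42612195-42612860 on the plus strand. Their coding sequences of 402 bases differ at T84A and C194T, counted from 1 at the A of the start codon, with the base of Ccl21a first. Ccl21b, Gm13304 and Gm21541 differ from Ccl21a at the same 2 positions, an identity of 99.5%. Bases 76 to 205 are shown with the 2 positions in capitals.
Ccl21a: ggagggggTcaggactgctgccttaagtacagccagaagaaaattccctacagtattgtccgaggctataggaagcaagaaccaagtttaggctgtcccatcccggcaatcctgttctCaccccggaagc
Gm10591: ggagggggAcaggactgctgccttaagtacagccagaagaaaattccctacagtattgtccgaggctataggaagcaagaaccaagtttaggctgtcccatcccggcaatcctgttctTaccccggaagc

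For Ccl19 the copy is a pseudogene. The Ccl19 transcript used lies at chr4:42754525-42756543 on the minus strand and Ccl19-ps3 at chr4:42132559-42134171 on the plus strand. All 324 annotated bases of Ccl19-ps3 matched bases 4 to 327 of the Ccl19 coding sequence, so the pseudogene as annotated lacks only the start codon, shown here in capitals. The first 90 coding bases of Ccl19 stand beside the first 87 bases of Ccl19-ps3. Another pseudogene, Ccl19-ps1, differs from Ccl19 at T2C, C68A, C118T and A267C.
Ccl19: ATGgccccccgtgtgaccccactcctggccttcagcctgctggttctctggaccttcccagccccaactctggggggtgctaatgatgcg
Ccl19-ps3: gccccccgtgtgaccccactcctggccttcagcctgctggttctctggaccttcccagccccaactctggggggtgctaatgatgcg

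Reads of the T cell zone chemokine Ccl19 were listed almost wholly under that pseudogene. Ccl19-ps3 held 95.7% of the 2937 reads of Ccl19 and its copies, and the Ccl19 row on chromosome 4 held 3.54%. The sources used here do not give how reads that match several copies were treated, so no row of either family can be read as 1 gene's expression. The Ccl19 row on chromosome 4 had 0, 0.740 and 1.09 FPKM in Acu 4, 6 and 28, against 0.472, 0.509, 0.844 and 2.37 FPKM in AIA 5, 10, 31 and 38, and 0.561, 0.373 and 0 FPKM in Control 15, 16 and 17. These values rest on 0 to 35 reads and the groups overlap. A count of 0 allows up to 0.217 FPKM in the library labelled Acu 4 and 0.225 FPKM in the library labelled Control 17, counting 3 reads and covering counting error only. The scaffold row lay between 0 and 0.899 FPKM. The chromosome 4 row differed by 0.58 for AIA minus Control on the log2(FPKM + 1) scale (limma adjusted p = 0.339), by 0.40 without the libraries labelled Acu 4 and Control 17, and by 0.49 against Control 16 alone. The scaffold row differed by 0.40 (limma adjusted p = 0.398), 0.28 and -0.05 in the same 3 fits.

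Summed over Ccl19 and its copies, the level was 0, 116 and 88.6 FPKM in Acu 4, 6 and 28, 90.5, 117, 41.8 and 65.5 FPKM in AIA 5, 10, 31 and 38, and 0.561, 13.6 and 0 FPKM in Control 15, 16 and 17. Every AIA library, with Acu 6 and Acu 28, stood above every Control library, and the library labelled Acu 4 was at 0. The FPKM of the copies were then summed before the fit, so a read counts for more in a row with a short gene model. The sum was not fitted with Control 15 left out. AIA minus Control was 4.72 on the log2(FPKM + 1) scale with all 10 libraries (limma adjusted p = 0.119) and 3.97 without the libraries labelled Acu 4 and Control 17 (limma adjusted p = 0.0176). Acu minus Control without those libraries was 4.42 (limma adjusted p = 0.0390). The pseudogene's own row gave 4.30 for AIA minus Control in that fit (limma adjusted p = 0.0202) and 2.42 when Control 15 was left out as well (limma adjusted p = 0.0892).

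Ccl21a, the other Ccr7 ligand, was listed mainly on the scaffold, whose gene model covers the 402 coding bases. That row held 78.0% of the reads of the Ccl21 genes and the chromosome 4 row 13.2%. The scaffold row had 35.5, 93.9 and 120 FPKM in Acu 4, 6 and 28, 258, 92.4, 85.4 and 79.9 FPKM in AIA 5, 10, 31 and 38, and 0, 67.3 and 2.59 FPKM in Control 15, 16 and 17. AIA 5 stood high, and the lowest AIA library lay above Control 16. AIA minus Control was 4.19 (SE 1.19, limma adjusted p = 0.0958), and 3.79 without the libraries labelled Acu 4 and Control 17 (limma adjusted p = 0.108). Against Control 16 alone it was 0.74 (limma adjusted p = 0.667), and Control 15 and the library labelled Control 17, both with few lymphocyte genes, were the lowest of all 10.

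The split between the Ccl21a rows differed between libraries. AIA 10 had 62.3 FPKM on chromosome 4 and AIA 5 had 12.5, while AIA 31 and AIA 38 had 2.26 and 0.947. Acu 4, 6 and 28 had 0.217, 2.15 and 3.09 FPKM on chromosome 4, and Control 15, 16 and 17 had 0, 0.967 and 0. The chromosome 4 row differed by 2.77 for AIA minus Control (limma adjusted p = 0.148), by 2.61 without the libraries labelled Acu 4 and Control 17, and by 2.12 against Control 16 alone (limma adjusted p = 0.606). Summed over all Ccl21 genes, the levels were 42.7, 104 and 134 FPKM in Acu 4, 6 and 28, 274, 167, 91.9 and 92.9 FPKM in AIA 5, 10, 31 and 38, and 0, 73.6 and 3.53 FPKM in Control 15, 16 and 17. As a sum AIA 10 was the second highest library, whereas on the scaffold row it was close to AIA 31 and AIA 38. The summed difference AIA minus Control was 4.35 (limma adjusted p = 0.0903), and 4.04 without the libraries labelled Acu 4 and Control 17 (limma adjusted p = 0.0945).

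**Figure D1:**
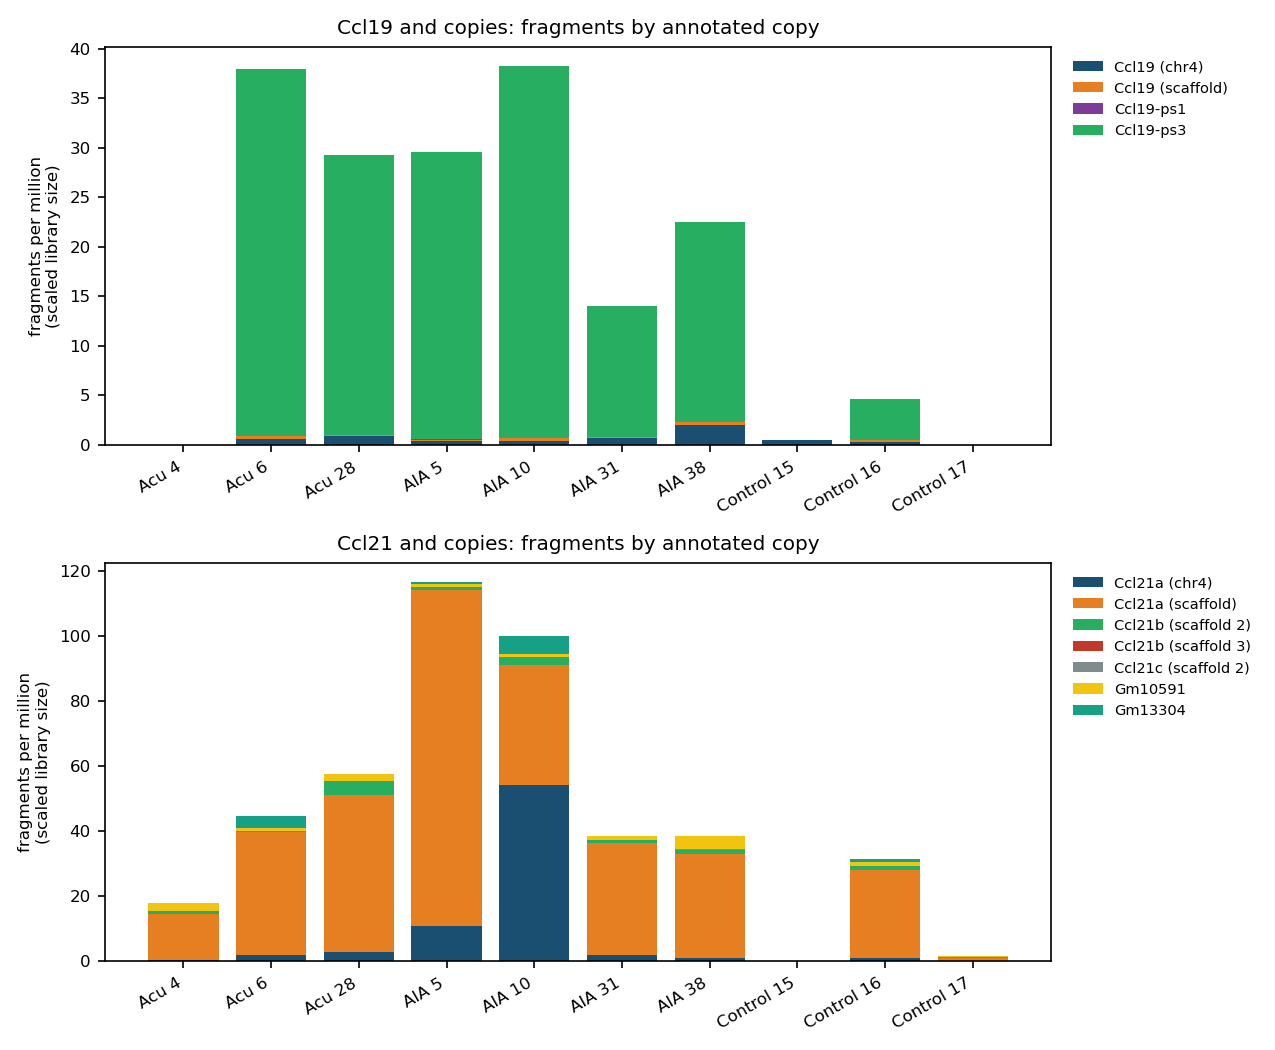
Fragments scaled to library size (vertical axis) listed under each annotated copy of Ccl19 (top) and Ccl21 (bottom) in each library, as stacked bars. Ccl19-ps3 makes up nearly all of the Ccl19 bars, and the chromosome 4 row of Ccl21a is large in AIA 10 and second largest in AIA 5.

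Cxcl13, the B cell follicle chemokine, had the highest mean of the rows in the AIA libraries. The gene lies at chr5:95956951-95961068 (mm10, plus strand). It had 0.164, 145 and 171 FPKM in Acu 4, 6 and 28, 116, 138, 217 and 362 FPKM in AIA 5, 10, 31 and 38, and 5.29, 278 and 0.227 FPKM in Control 15, 16 and 17. Control 16 stood above 3 of the 4 AIA libraries, and the 3 libraries with few lymphocyte genes were the 3 lowest. Cxcl13 averaged 208 ± 112 FPKM in AIA (SD, n = 4) and 94.4 ± 159 FPKM in Control (SD, n = 3). AIA minus Control was 3.87 (SE 2.0, limma adjusted p = 0.253), 2.18 without the libraries labelled Acu 4 and Control 17 (limma adjusted p = 0.286), and -0.56 against Control 16 alone (limma adjusted p = 0.747). Genes of follicular dendritic cells, the follicular stroma that makes Cxcl13, averaged 3.62, 4.31 and 4.37 on the log2 scale in Acu 4, 6 and 28, 3.69 to 4.68 in AIA, and 2.69, 4.16 and 2.90 in Control 15, 16 and 17. The library labelled Acu 4, with decidua genes and few B cell genes, had that list near the level of AIA 5 and Cxcl13 at 0.164 FPKM. Which cells gave the list's level in that library was not tested.

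Cxcl13 is a known target of lymphotoxin signalling through the RelB form of NF-kB. The 250 bases before its start (RefSeq, GRCm38.p6, chr5:95956689-95956938, plus strand) hold a single match to GGAGANTT on either strand, 113 bases before the start and in capitals below. Of the 7 members with a promoter in the table, Cxcl13 alone held this motif, which 3.99% of 32851 promoters held. The classical kB motif was found in 0 of the 7, against 7.25% of promoters. GGAGANTT was picked after the sequence had been seen, and a match is no evidence of binding.
Cxcl13: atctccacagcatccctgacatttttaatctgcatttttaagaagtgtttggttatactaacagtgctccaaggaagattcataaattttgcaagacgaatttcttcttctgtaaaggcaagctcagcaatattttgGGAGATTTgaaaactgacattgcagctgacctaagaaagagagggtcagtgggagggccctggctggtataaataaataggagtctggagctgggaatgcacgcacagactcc

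Cxcl12, made by many kinds of stroma, followed the lymphocyte genes only in part. The gene lies at chr6:117168535-117181367 (plus strand). It had 10.3, 30.2 and 31.7 FPKM in Acu 4, 6 and 28, 34.5, 22.2, 21.1 and 32.4 FPKM in AIA 5, 10, 31 and 38, and 48.9, 18.8 and 0.876 FPKM in Control 15, 16 and 17. Control 15, with few lymphocyte genes, was the highest library. The libraries labelled Control 17 and Acu 4, also with few lymphocyte genes, were the lowest. The AIA minus Control difference was 1.18 (SE 0.93, limma adjusted p = 0.438) and turned to -0.17 without the libraries labelled Acu 4 and Control 17 (limma adjusted p = 0.823). It was 0.49 against Control 16 alone (limma adjusted p = 0.605). Fibroblastic stroma genes averaged 4.86 and 4.81 on the log2 scale in the libraries labelled Acu 4 and Control 17, and 3.31 to 4.11 elsewhere, so the 2 libraries highest in those genes were lowest in Cxcl12.

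**Figure D2:**
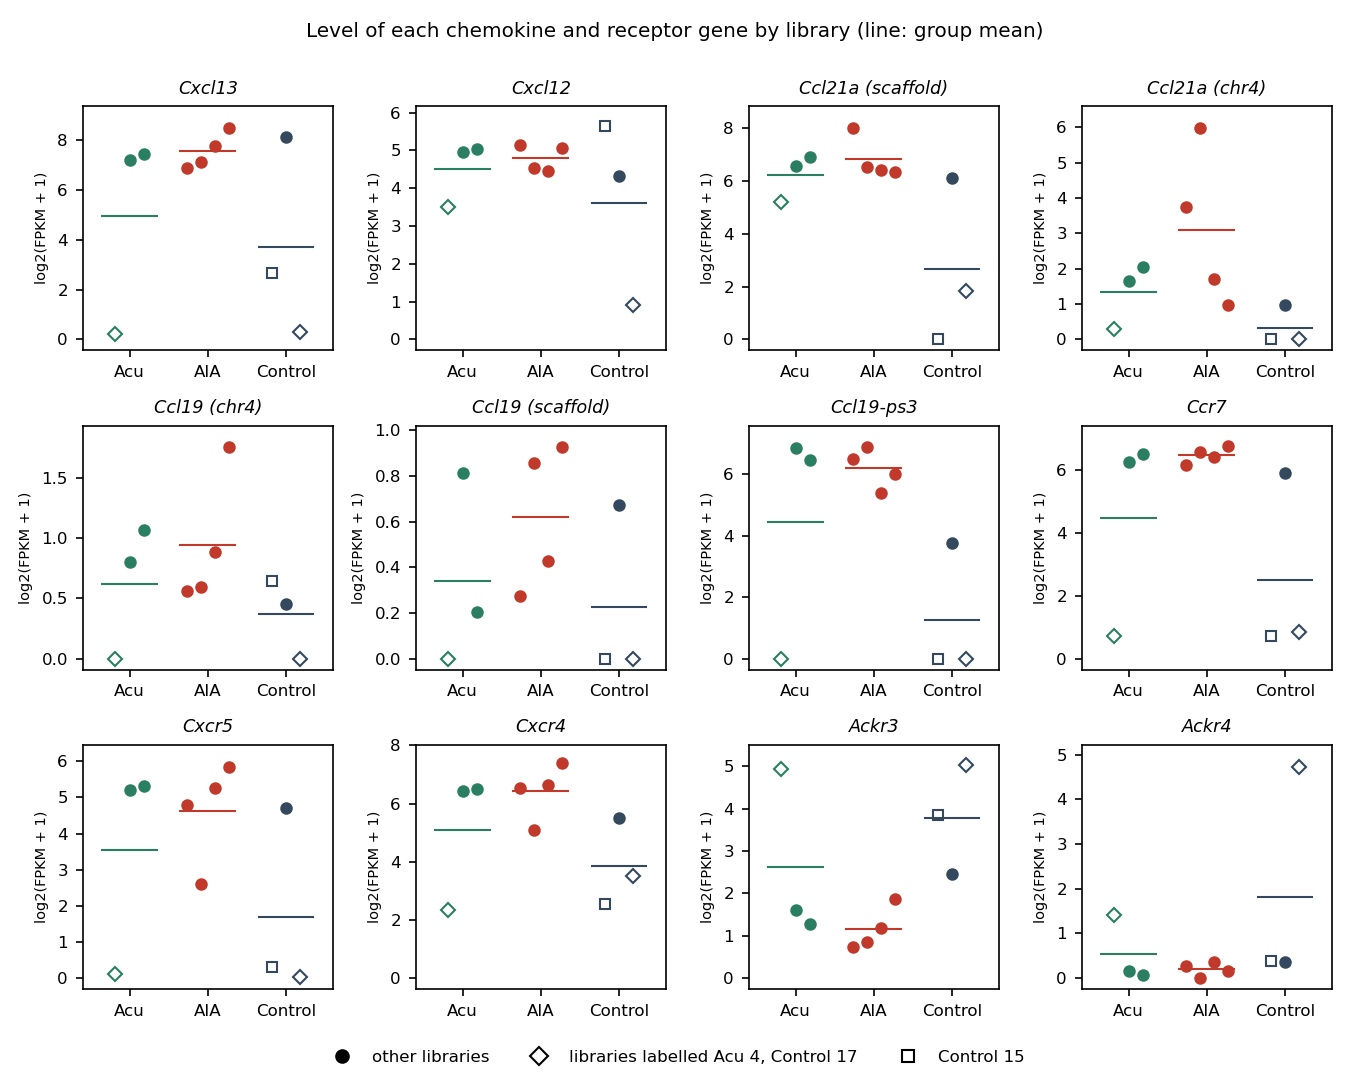
Level of each row as log2(FPKM + 1) (vertical axis) in the Acu, AIA and Control libraries, 1 point per library, with a line at the group mean. Ccl19-ps3 is a pseudogene shown for comparison. Open symbols mark the libraries labelled Acu 4 and Control 17 (diamonds) and Control 15 (squares), which are low for Cxcl13, Ccr7 and Cxcr5 and high for Ackr3.

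Among the signalling receptors, Ccr7 divided the libraries most cleanly. The gene lies at chr11:99144196-99155077 (minus strand). It had 0.635, 75.7 and 91.0 FPKM in Acu 4, 6 and 28, 70.6, 94.4, 84.3 and 109 FPKM in AIA 5, 10, 31 and 38, and 0.646, 59.6 and 0.823 FPKM in Control 15, 16 and 17. The AIA libraries lay within a narrow range above all Control libraries. Ccr7 averaged 89.5 ± 16.1 FPKM in AIA (SD, n = 4) and 20.4 ± 34.0 FPKM in Control (SD, n = 3), a log2 difference of 3.98 (SE 1.54, limma adjusted p = 0.155). It was 3.16 without the libraries labelled Acu 4 and Control 17 (limma adjusted p = 0.106), and 0.56 against Control 16 alone (limma adjusted p = 0.558). T cell genes, from cells that carry Ccr7, averaged 4.88 to 5.11 on the log2 scale in AIA and 0.49, 4.37 and 0.42 in Control 15, 16 and 17.

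Cxcr5, the Cxcl13 receptor of B cells and follicular helper T cells (chr9:44511787-44561877, minus strand), had 0.0754, 35.8 and 38.9 FPKM in Acu 4, 6 and 28. It had 26.4, 5.11, 37.2 and 56.8 FPKM in AIA 5, 10, 31 and 38, against 0.237, 24.9 and 0.0195 FPKM in Control 15, 16 and 17. AIA 10 lay below Control 16, so the groups overlap. The difference of AIA minus Control was 2.95 (SE 1.50, limma adjusted p = 0.248), 2.12 without the libraries labelled Acu 4 and Control 17 (limma adjusted p = 0.278), and -0.07 against Control 16 alone. In AIA 10 Cxcr5 stood 3.33 below the mean of the B cell genes on the log2 scale, against 0.53 to 1.36 below it in AIA 5, 31 and 38, although the B cell genes themselves averaged 5.94 there and 6.14 to 6.47 in those 3 libraries.

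Cxcr4, the Cxcl12 receptor carried by most leukocytes (chr1:128588199-128592293, minus strand), had 4.03, 85.8 and 90.5 FPKM in Acu 4, 6 and 28, 92.5, 33.0, 99.5 and 166 FPKM in AIA 5, 10, 31 and 38, and 4.91, 44.3 and 10.4 FPKM in Control 15, 16 and 17. AIA 10 was again low and fell below Control 16. For AIA minus Control the difference was 2.56 (SE 1.08, limma adjusted p = 0.181), 2.38 without the libraries labelled Acu 4 and Control 17 (limma adjusted p = 0.100), and 0.91 against Control 16 alone (limma adjusted p = 0.634). The low Cxcr4 and Cxcr5 of AIA 10 stood beside its 15116 genes above 0, the fewest of any library, and their part in the result was not tested.

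Ackr3, the Cxcl12 scavenger found on endothelium and stroma, was the only member row that passed the threshold in the fit without the libraries labelled Acu 4 and Control 17. For AIA minus Control that was 1 of 10 member rows, beside 13.4% of all genes, so the count does not set the members apart. The Ackr3 gene lies at chr1:90203980-90216751 (plus strand). It had 29.8, 2.06 and 1.43 FPKM in Acu 4, 6 and 28, 0.672, 0.790, 1.26 and 2.67 FPKM in AIA 5, 10, 31 and 38, and 13.4, 4.52 and 31.6 FPKM in Control 15, 16 and 17. Each AIA library lay below each Control library, while the library labelled Acu 4 was near the highest Control value. AIA minus Control was -2.62 with all 10 libraries (SE 0.88, limma adjusted p = 0.123) and -2.0 without the libraries labelled Acu 4 and Control 17 (SE 0.46, limma adjusted p = 0.0273). Against Control 16 alone Ackr3 was lower by a log2 difference of -1.31 (limma adjusted p = 0.238), so the call needs Control 15.

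Blood endothelium genes moved with Ackr3. They averaged 4.11, 2.66 and 2.50 on the log2 scale in Acu 4, 6 and 28, 1.95 to 2.69 in AIA, and 4.76, 3.83 and 5.27 in Control 15, 16 and 17, and 6 or 7 of the 7 were above 1 FPKM in every library. Set against their mean, Ackr3 stood at 0.84, -1.05 and -1.22 in Acu 4, 6 and 28, at -1.62, -1.11, -1.20 and -0.81 in AIA 5, 10, 31 and 38, and at -0.91, -1.36 and -0.24 in Control 15, 16 and 17. On that relative scale AIA and Control overlapped, which they did not in Ackr3 itself. Adipocyte genes were also high in Control 15 and 16. Skeletal muscle genes averaged 1.12, 5.26 and 6.40 in Acu 4, 6 and 28, 0.81 to 5.95 in AIA, and 6.79, 8.59 and 0.79 in Control 15, 16 and 17. The part of any of these lists in the Ackr3 difference was not tested.

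Ackr4, the scavenger of Ccl19 and Ccl21 on lymphatic endothelium, was low in all but 1 library. The gene lies at chr9:104084157-104126933 (minus strand). It had 1.65, 0.110 and 0.0556 FPKM in Acu 4, 6 and 28, 0.215, 0, 0.293 and 0.120 FPKM in AIA 5, 10, 31 and 38, where the 0 allows up to 0.0492 FPKM, and 0.305, 0.277 and 25.7 FPKM in Control 15, 16 and 17. The value of 25.7 rests on 2119 reads in the library labelled Control 17, and the next highest was the library labelled Acu 4, so both libraries with decidua genes were the highest. It was the only member row under the level needed for the test, 0.5 FPKM or more in 3 or more libraries. Lymphatic endothelium genes averaged 2.60 and 2.27 on the log2 scale in the libraries labelled Acu 4 and Control 17, and 0.72 to 1.89 elsewhere.

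**Figure D3:**
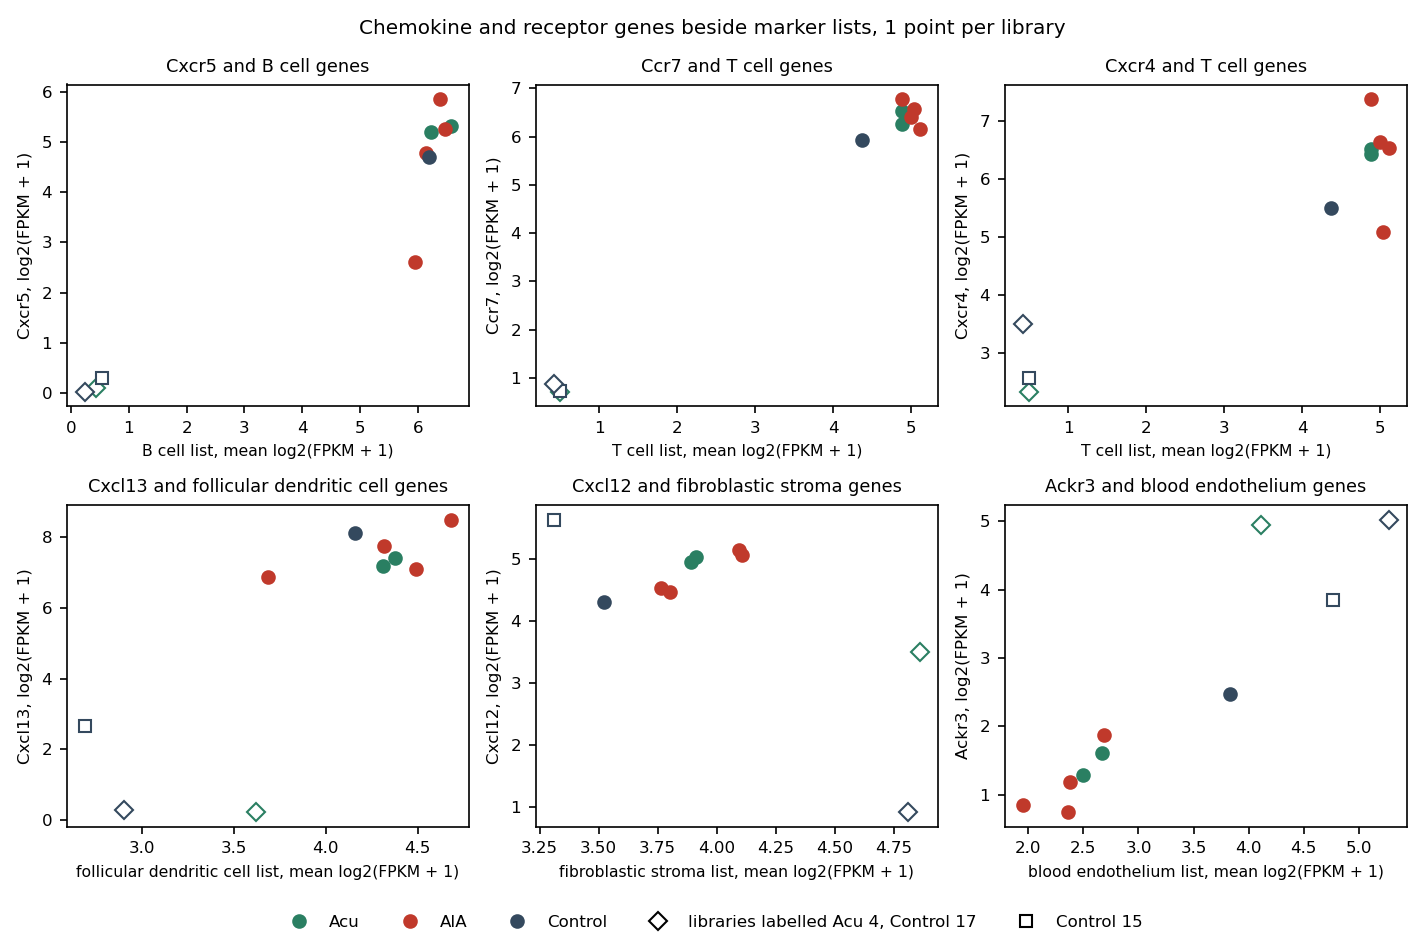
Level of 6 members (vertical axis) against the mean of a marker list (horizontal axis), both as log2(FPKM + 1), 1 point per library. Control 15 and the libraries labelled Acu 4 and Control 17 (open symbols) have few T and B cell genes and little Ccr7 and Cxcr5, and Ackr3 is highest where blood endothelium genes are highest.

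AIA and Control libraries differ in the adjuvant but also in tissue content, with few lymphocyte genes in Control 15 and the library labelled Control 17. An effect of the adjuvant on the node cannot be told apart from tissue content here. With all 10 libraries, 0 of the 10 tested member rows passed the threshold, an adjusted p under 0.05 over 17010 genes, and 4 genes, 0.0235% of all, did. At an unadjusted p under 0.05 there were 5 member rows and 4244 genes, and limma's voom on the recovered reads called 0 rows and 0 genes. The member rows had a median difference of 2.67 on the log2 scale, against -0.07 over all genes, and 9 of 10 stood higher in AIA. Ccl19 and Ccl21a count in 2 rows each there. Over the 6 tested members with a single row the median was 2.75, and 5 stood higher. Without overlap between AIA and Control were 3 member rows, Ccl21a on the scaffold, Ccr7 and Ackr3, beside 25.3% of all genes. Without the libraries labelled Acu 4 and Control 17, 1 of 10 member rows passed, beside 13.4% of all genes. The sum of Ccl19 and its copies, which is not a member row, passed without those libraries, as given above. Also without Control 15, 0 of 10 passed, beside 2.83%, and the members' median was 0.49.

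Acu was compared with AIA to ask what acupuncture changed in the adjuvant-treated animals. With all 10 libraries 0 of 10 member rows and 0% of 17010 genes passed, with 0 rows and 800 genes at an unadjusted p under 0.05, and voom called 0. Member differences ran from -2.62 for Cxcl13 to 1.45 for Ackr3 (limma adjusted p = 0.746 for both), and the groups overlap in every row. The library labelled Acu 4 lay outside Acu 6 and 28 in each of those rows and widens the Acu range. The share of all genes without overlap was not computed for this comparison, so the overlap says nothing particular about the members. Without the libraries labelled Acu 4 and Control 17, Cxcl13 differed by -0.26 (95% interval -3.14 to 2.63), Ccr7 by -0.09 (95% interval -2.71 to 2.53), Cxcr4 by 0.06, Cxcr5 by 0.64 and Ackr3 by 0.29 (95% interval -0.77 to 1.35), and 0 of 10 rows and 0% of genes passed. With Control 15 left out as well, the interval was -0.82 to 0.64 for Ccr7 and -1.50 to 0.99 for Cxcl13. No difference was detectable between Acu 6 and 28 and the AIA libraries, and the intervals hold differences of either sign.

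Acu against Control shares its libraries with both other comparisons. With all 10 libraries 0 of 10 member rows and 0% of genes passed, with 1 row and 1275 genes at an unadjusted p under 0.05, and voom called 0. Ccl21a on the scaffold differed by 3.58 (SE 1.27, limma adjusted p = 0.647) and Ackr3 by -1.17 (limma adjusted p = 0.790). Without the libraries labelled Acu 4 and Control 17, 0 of 10 rows passed, beside 4.34% of genes. The sum of Ccl19 and its copies, not among those rows, passed without those libraries, as given above. That call rests on Control 15 and Control 16, at 0.561 and 13.6 FPKM as a sum, and was not examined without Control 15. Ackr3 then differed by -1.71 (limma adjusted p = 0.110), Ccr7 by 3.07 (limma adjusted p = 0.215) and Cxcr4 by 2.44 (limma adjusted p = 0.187).

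**Figure D4:**
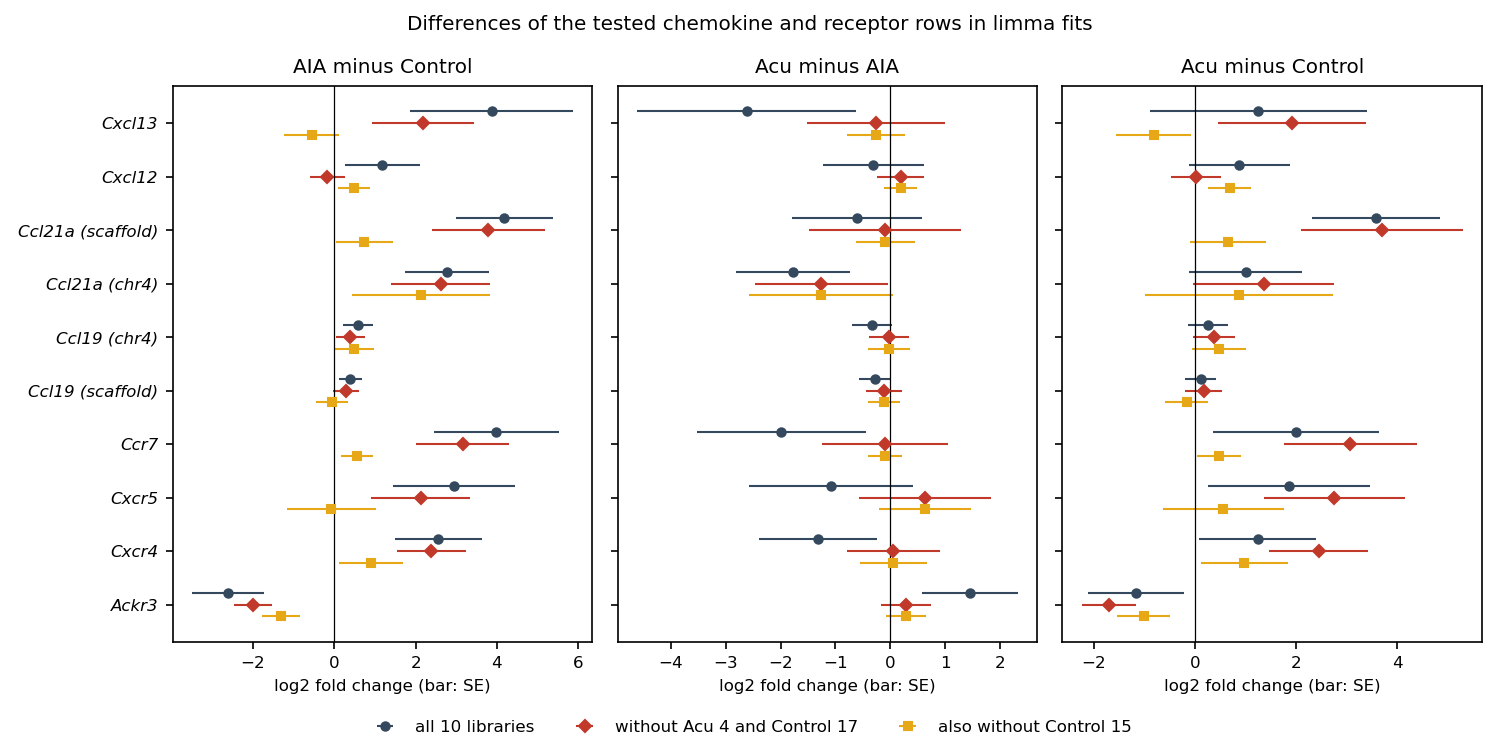
Log2 fold change (horizontal axis, bar: SE) of the 10 tested rows for AIA minus Control, Acu minus AIA and Acu minus Control, with all 10 libraries, without the libraries labelled Acu 4 and Control 17, and also without Control 15. For AIA minus Control Ackr3 stays below 0 in all 3, at -2.62, -2.0 and -1.31, and Ccr7 goes to 0.56 in the last.

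Within the AIA libraries the mean levels ranked in the order Cxcl13 (208 FPKM), Ccl21a on the scaffold (129), Cxcr4 (97.7), Ccr7 (89.5), Cxcr5 (31.4), Cxcl12 (27.5), Ccl21a on chromosome 4 (19.5), Ackr3 (1.35), Ccl19 on chromosome 4 (1.05), Ccl19 on the scaffold (0.565) and Ackr4 (0.157). Of the 10 neighbouring pairs in that order, 9 overlap in range. The exception is Ccr7 above Cxcr5, with 70.6 to 109 FPKM against 5.11 to 56.8 FPKM.

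The genes whose profiles over the 10 libraries were most like a member's were sought among 12692 tested protein-coding genes, by the root mean square difference of centred log2 profiles. Immunoglobulin and T cell receptor segments and Gm, Rik and unnamed genes were not candidates. The profiles were not scaled to equal range. Rows with a small range, such as the Ccl19 rows, can therefore have small differences, and sizes are not comparable between members. For Ccr7 they were Ms4a1 (0.198), Tcf7 (0.283) and Fcrla (0.326). For Cxcr5 they were H2-Oa (0.225), Ms4a4b (0.430) and Lck (0.466), and for Cxcr4 Ikzf1 (0.286), Cd53 (0.377) and Cytip (0.398). Ms4a1, which encodes CD20 of B cells, and Tcf7, a T cell transcription factor, stood nearer to Ccr7 than any other candidate. For Ackr3 they were Cttn (0.234), Apmap (0.322) and Fkbp9 (0.324), and for Cxcl12 Apoe (0.308), Acp5 (0.382) and C4b (0.445). The nearest profiles were farther off for Cxcl13, at 0.636 for H2-DMb2, 0.693 for Cd79a and 0.721 for Ltb, and for Ccl21a on the scaffold, at 0.960 for Itgb7, 0.965 for Ly6d and 1.01 for Dnase1l3. The Ccl19 row on chromosome 4 was nearest to Trafd1 (0.177), Fam49a (0.198) and C1qbp (0.206), the scaffold row of Ccl19 to Slc41a1 (0.172), Bms1 (0.182) and Dis3 (0.183), and Ccl21a on chromosome 4 to Bola2 (0.665), Lst1 (0.669) and Ptpn18 (0.732).

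Genes around the pathway were counted in the same fits. None of 4 lists held a called gene with all 10 libraries in limma: 0 of 11 upstream signals such as lymphotoxin, 0 of 23 genes of receptor signalling and adhesion, 0 of 13 other positioning and egress genes and 0 of 14 other homeostatic or atypical chemokine genes. Their median differences for AIA minus Control were 0.98, 0.87, 0.54 and 0.46 in that order, against -0.07 over all genes. Without the libraries labelled Acu 4 and Control 17, 0 of 11 upstream signals, 2 of 23 genes of receptor signalling and adhesion and 3 of 13 other chemokine genes passed for AIA minus Control, beside 13.4% of all genes, so these small counts set neither list apart. Those that rose were Itgal, the integrin chain that binds Icam1 (2.67, limma adjusted p = 0.0407), and Pik3cg, the lipid kinase downstream of chemokine receptors (1.99, limma adjusted p = 0.0272). Also higher were Ccrl2, a chemerin-binding atypical receptor (1.83, limma adjusted p = 0.0170), and Cxcl16, the ligand of Cxcr6 (2.28, limma adjusted p = 0.0396). Cxcl14, a chemokine of epithelia and stroma, fell (-1.62, limma adjusted p = 0.0481). None of these 5 passed once Control 15 was left out, and none passed in a comparison of Acu with AIA or with Control.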

How the data were processed

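Per the submitters' processing notes, the build was mm10 and the tools included DESeq2 1.16.1, featureCounts 1.5.0-p3, HISAT2 2.0.5 and StringTie 1.3.3b, with no role given. RNA was taken with Trizol and libraries made with the NEBNext Ultra kit, per the labels. The authors deposited FPKM for 54987 genes. FPKM times gene length gave whole reads for 100% of values, within 0.01 of a read, and the library sizes behind them were in a constant ratio to median-of-ratios factors, so that scaling again changed nothing. The sources used here do not say whether counting used strand, and overlapping genes are uncertain.

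limma 3.58.1 in R 4.3.3 fitted log2(FPKM + 1) of genes at 0.5 FPKM or more in 3 or more libraries, in a single fit of all 10 with a mean-variance trend. The pseudocount of 1 understates changes of low genes. P-values were adjusted by Benjamini and Hochberg over all genes tested. SE is limma's moderated standard error, and intervals use its degrees of freedom. Other settings were another pseudocount, no filter, equal totals, array weights, voom on the recovered reads, 2 groups alone, each library left out and, added after seeing the data, copies summed. Named genes are the members, their copies, the 3 most similar profiles of each and the pathway genes called, up to 5 per list. The result of 1 pathway gene is not reported here. The members, gene lists and doubted libraries were chosen with earlier results of these data known. Sequences come from GENCODE transcripts and RefSeq promoters. The fit was tested on simulated data. Python 3.11.15 with pandas 2.3.3 and matplotlib 3.10.9 was used for the rest. A sham acupuncture group named in the labels' protocols was not analysed here.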

Additional observations from a re-analysis of the deposited data

Results flagged for a closer look

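The Ccl21a row on the scaffold stood at 258 FPKM in AIA 5, far from the other 3 AIA libraries, of which the nearest had 92.4 FPKM. The gap was 0.93 of the group's range, above Dixon's critical value for 4 samples. It was 1 of 12 gene rows examined in the AIA group, and chance flags about 1 in 20 groups. Summed over all Ccl21 genes, AIA 5 had 274 FPKM and AIA 10 had 167 FPKM, and AIA 10 had the larger level on chromosome 4.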

How the results depend on the processing

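No paired analysis was possible because the groups share no replicate number. For AIA minus Control, 4 genes passed with all 10 libraries, 0 with a pseudocount of 0.1, 1 without the filter, 390 with libraries scaled to the same total, 3319 with array weights, 0 with voom, 2156 without the libraries labelled Control 17 and Acu 4 (2163 with copies summed), 443 also without Control 15, and 785 with those 2 groups fitted alone. Leaving out 1 library gave 0 to 1713, with 1713 without Acu 4, 967 without Control 17, 7 without AIA 10 and 2 without Acu 6. For Acu minus AIA, 0 became 2 without the filter, 1 scaled to the same total and 98 with array weights, and 0 to 1 when 1 library was left out. For Acu minus Control, 0 became 1 without the filter, 2067 with array weights and 698 without the 2 libraries (699 with copies summed), and 0 to 303 when 1 library was left out (303 without Control 17, 85 without Acu 4). Scaling to the same total moved the median of all genes to -0.31 from -0.07 (AIA minus Control) and to 0.44 from 0.08 (Acu minus AIA), and 50 of the 390 were higher in AIA, against 2 of 4.

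For AIA minus Control array weights called 5 of 10 member rows (Ccl21a on the scaffold, Cxcr4, Ccr7, Cxcr5, Ackr3), beside 3319 of 17010 genes. Without the 2 libraries 1 row was called, beside 2156 of 16067 genes, and with 2 groups alone 1, beside 785 of 15804. Leaving out 1 library called 0 to 1 rows, with 1 without Acu 4, beside 1713 of 16497 genes. Each single call was Ackr3. For Acu minus Control array weights called 1 of 10 rows, Ccl21a on the scaffold, beside 2067 of 17010 genes. Of 569 member values over 30 results and 19 settings, 22 reversed, none of them past the threshold. For AIA minus Control, without the 3 libraries, Cxcl13 was -0.56, Cxcr5 -0.073 and the Ccl19 scaffold row -0.052, and without the 2 libraries Cxcl12 was -0.17. For Acu minus AIA, without the 2 or the 3 libraries, Cxcl12 was 0.20, Cxcr4 0.061 and Cxcr5 0.64, and Cxcl12 was 0.24 scaled to the same total and 0.29 with array weights, where the Ccl19 scaffold row was 0.11. For Acu minus Control, without the 3 libraries, Cxcl13 was -0.81 and the Ccl19 scaffold row -0.16. Leaving out 1 library moved Cxcl12 from -0.17 to 2.19 (AIA minus Control), -0.57 to 0.20 (Acu minus AIA) and -0.48 to 1.89 (Acu minus Control), Cxcr4 from -2.03 to 0.06 and Cxcr5 from -1.97 to 0.64 (Acu minus AIA), and for Acu minus Control Cxcl13 from -0.44 to 3.62 and the Ccl19 scaffold row from -0.12 to 0.34. The Ccl19 row on chromosome 4 rests on 0 to 35 reads per library. The causes were not tested.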
